A study of Mus musculus with 4 samples.

Results

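The inflammasome adaptor Pycard, the caspases Casp1 and Casp4, the sensors Nlrp3 and Nlrp6, and the interleukin-1 (IL-1) family genes Il1a, Il1b, Il1rn, Il18 and Il33 were examined in mouse kidney ureteric buds. The members are 10 genes chosen by name, with earlier results of the same comparison in view, and their probes were found through the accession that the scanner files give for each probe. For 9 of the 10 genes at least 1 probe matched, 12 probes of 41174 in all, and these genes are 9 of the 17305 named on the array. No accession matched Nlrp6 through the RefSeq table, so it has no value here.

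Intact ureteric buds, the epithelial outgrowths that branch into the collecting ducts and ureter, were cultured in a gel matrix with the growth factors GDNF (100 ng/ml) and HGF (100 ng/ml) in 10% serum. One group received angiotensin II (AngII, 1e-05 M), the main hormone of the renin-angiotensin axis, for 6 h, and the other received media alone for the same 6 h. Both groups therefore carried the serum and the growth factors, and the sources used here do not state strain, genotype, embryonic age or the number of animals. RNA numbered 1 and RNA numbered 2 of each group were set against each other on 2-colour arrays, with AngII in Cy5 on 2 arrays and in Cy3 on the other 2, all 4 on 1 slide. In bulk tissue of this kind, fewer cells of a type and less RNA per cell cannot be told apart.

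An inflammasome is a cytosolic platform on which a sensor such as NLRP3 or NLRP6 recruits the adaptor ASC, the product of Pycard, which in turn gathers caspase-1. Caspase-1 cuts the precursors of IL-1 beta and IL-18 into their active forms, and caspase-11, the product of mouse Casp4, responds to intracellular lipopolysaccharide and cuts gasdermin D. The IL-1 family also holds IL-1 alpha and IL-33, alarmins released from damaged cells, and the IL-1 receptor antagonist, the product of Il1rn, which blocks the IL-1 receptor. In many tissues macrophages and other leukocytes are the main source of IL-1 beta, whereas epithelial cells can express Pycard, Casp4, Il18 and Il33.

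The regions upstream of the genes that differed most between the RNAs, and of Casp1, which lies next to Casp4, are shown because they let the neighbouring caspase genes be compared base by base. Each line holds the 250 bases before a RefSeq start in GRCm38.p6, read 5′ to 3′ on the gene's own strand, and capitals mark a match to the NF-kB consensus or to TATAAA.
Pycard, chr7:127993868-127994117, minus strand: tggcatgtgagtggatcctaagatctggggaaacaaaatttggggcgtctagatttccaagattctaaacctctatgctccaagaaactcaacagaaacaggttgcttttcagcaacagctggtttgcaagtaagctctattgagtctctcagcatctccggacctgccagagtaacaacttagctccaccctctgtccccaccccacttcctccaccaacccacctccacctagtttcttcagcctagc
Casp1, chr9:5298267-5298516, plus strand: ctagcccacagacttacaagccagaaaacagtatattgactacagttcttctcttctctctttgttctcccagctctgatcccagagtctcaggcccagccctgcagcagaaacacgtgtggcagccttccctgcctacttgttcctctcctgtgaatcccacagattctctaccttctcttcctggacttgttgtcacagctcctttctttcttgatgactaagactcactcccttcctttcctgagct
Casp4, chr9:5308599-5308848, plus strand: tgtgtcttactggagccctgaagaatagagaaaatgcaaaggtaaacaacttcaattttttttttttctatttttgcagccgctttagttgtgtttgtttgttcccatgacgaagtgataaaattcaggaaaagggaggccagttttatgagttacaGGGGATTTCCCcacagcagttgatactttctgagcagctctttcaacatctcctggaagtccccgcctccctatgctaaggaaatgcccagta
Il33 first start, chr19:29924863-29925112, plus strand: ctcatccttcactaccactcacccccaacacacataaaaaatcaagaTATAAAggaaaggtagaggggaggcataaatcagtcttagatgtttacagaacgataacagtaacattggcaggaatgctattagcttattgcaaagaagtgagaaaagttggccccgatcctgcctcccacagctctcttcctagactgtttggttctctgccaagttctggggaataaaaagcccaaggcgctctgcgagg
Il33 second start, chr19:29945540-29945789, plus strand: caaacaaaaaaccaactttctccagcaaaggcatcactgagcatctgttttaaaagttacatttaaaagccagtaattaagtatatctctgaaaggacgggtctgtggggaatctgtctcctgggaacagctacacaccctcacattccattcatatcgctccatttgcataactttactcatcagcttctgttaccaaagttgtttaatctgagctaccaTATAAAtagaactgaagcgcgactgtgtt
All 10 genes had an entry in this table. The Casp4 window held a run matched by the NF-kB consensus at 3 overlapping placements over both strands, between 93 and 83 bases before the start, and the Casp1 window held none. Over all 32851 windows of this length, 3.90% held the consensus on either strand. The first Nlrp3 window held a single match as well, and no window of Pycard, Il1a, Il1b, Il1rn, Il18 or Il33 held one. TATAAA, searched on the gene's strand, lay 29 to 24 bases before the second Il33 start, 32 to 27 before Il1a and 31 to 26 before Il1b, and 7.59% of all windows held it. TGANTCA, the AP-1 motif searched on both strands, was present upstream of Nlrp6, Il1a and the first Il1rn start, against 6.75% of all windows, and TTCNNNGAA, the STAT motif, was in no member's window, against 7.02%. The Pycard window held 2 CpG dinucleotides and that of Casp1 held 1, where the median window held 6. These are matches of letters in a fixed window and no binding was measured.

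Of the 9 matched genes, 5 had a probe that passed the filter on dim probes, that is, was well above background by the scanner's flag on all 4 arrays in at least 1 of the RNAs. They were Pycard, Casp1, Casp4, Il1rn and Il33, with 6 of the 12 probes. Nlrp3, Il1a, Il1b and Il18 did not pass. Values are log2 ratios of AngII over media on each array, with the dye-swapped arrays turned, and the array order below is AngII in Cy5 with RNA pair 1 and pair 2, then AngII in Cy3 with pair 1 and pair 2. Levels are normalised log2 intensities that include an added offset of 50, and levels of different probes are not compared. Of the 5 tested members 3 were at least 1.5-fold higher under AngII and none was lower by that size, where 5.49% of 15003 features were higher and 5.39% lower. All 5 also passed in limma as higher, where 39% of features passed as higher and 77.1% in either direction, and Casp1 was among the 5 through the AngII RNA alone. Because the members were chosen with this same comparison in view, their ratios are given as a description with no test and nothing is read from these counts.

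Across features, the 2 numbered RNA pairs differed by no more than array noise. One contrast of the 4 arrays carries the difference between pairs and another carries hybridisation noise only, and both had an SD of 0.04 (log2) over the features. In limma 0 features differed between the pairs at an adjusted p under 0.05 (767 at an unadjusted p under 0.05, and no other tool was run). The pairs were therefore counted as 1 independent pair of RNA samples, and the spread given below is that between hybridisations. The difference between AngII and media has no check in an independent pair.

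**Figure D1:**
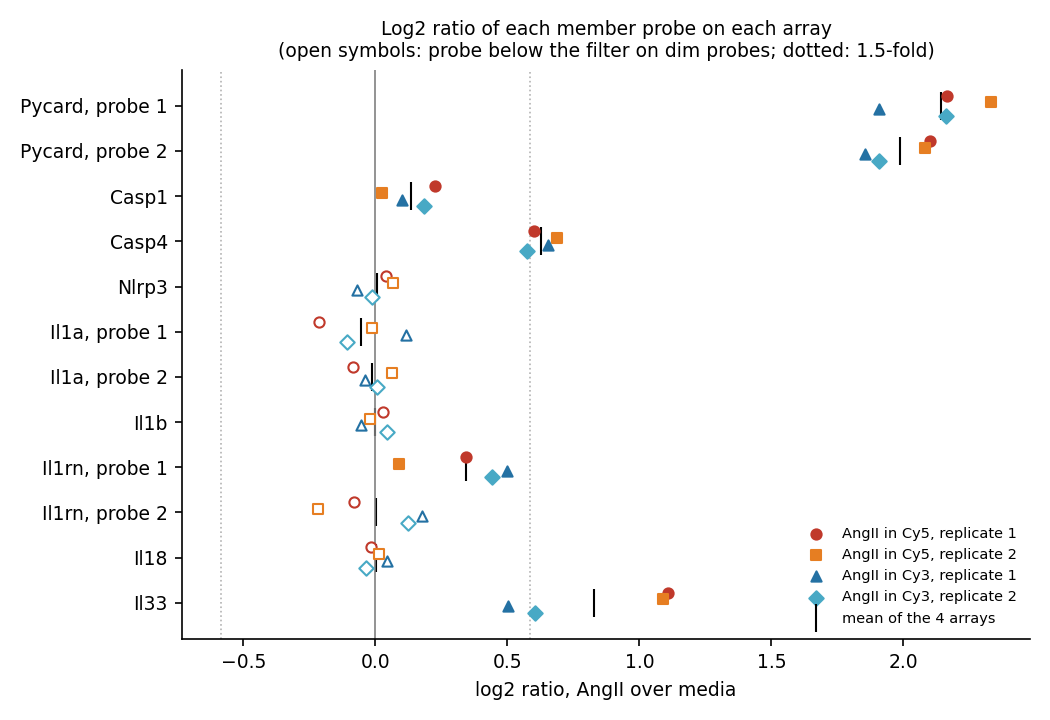
Log2 ratio of AngII over media for each member probe (rows) on each of the 4 arrays (symbols), with the mean as a vertical bar, dotted lines at 1.5-fold and open symbols for probes that did not pass the filter on dim probes. Both Pycard probes lie between 1.85 and 2.33, Casp4 between 0.58 and 0.69 and Il33 between 0.50 and 1.11, and the open symbols lie on both sides of 0.

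Pycard encodes ASC, the adaptor that joins sensor to caspase-1, and it had the highest ratio of the members. In the AngII RNA its brighter probe read 10.51, 10.44, 9.65 and 10.20 on the log2 intensity scale over the 4 arrays, and in the media RNA 8.35, 8.11, 7.74 and 8.04. Every AngII reading lay above every media reading. The log2 ratios were 2.16, 2.33, 1.91 and 2.16, with a mean of 2.14, or 4.41-fold. A second Pycard probe on the same accession gave 2.10, 2.08, 1.85 and 1.91, a mean of 1.99 or 3.96-fold, so the probes differed by less than their range over the arrays. In raw pixel intensities the brighter probe stood 21.7 to 48.3 times over its local background in the AngII channel and 5.08 to 8.82 times in the media channel. Only 8 of 15003 features had a higher mean ratio than this probe. With Agilent's processed signals its log2 ratio was 2.55, and over all 13 alternatives it ran from 2.03 to 2.55. In the authors' deposited table the log2 ratios of the Pycard probes were 2.27 and 2.17.

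The genes whose 4 array ratios lay nearest to those of Pycard, by root mean square difference over the 4 arrays, were Muc20 at 0.14, Krt20 at 0.18, Hba-a1 at 0.20 and Hbb-y at 0.21. Muc20 is a membrane mucin, Krt20 a keratin of differentiated epithelium, and the other two are globin genes of red cells. This likeness is over 4 arrays of a single comparison. On chromosome 7 Pycard lies next to Trim72, which did not pass the filter on dim probes. Itgam, a leukocyte integrin gene beyond Trim72, was not well above background on any array in either RNA.

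Casp4 encodes caspase-11, the sensor caspase of the non-canonical pathway, and it had the narrowest range over arrays among the 5 tested members. Its probe read 10.40, 10.29, 10.53 and 10.44 in the AngII RNA and 9.80, 9.60, 9.88 and 9.86 in the media RNA. The groups did not overlap. The log2 ratios were 0.60, 0.69, 0.65 and 0.58, with a mean of 0.63 (1.55-fold) and an SD over the arrays of 0.05. Over the 13 alternatives the mean ran from 0.61 to 0.68. Without loess, with each array centred on its median, the mean was 0.68 but the single arrays ran from -0.23 to 1.56, with the arrays of one dye orientation high and those of the other low.

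Casp1 encodes caspase-1, the protease that activates IL-1 beta and IL-18, and its signal was close to background. The probe read 6.67, 6.35, 6.48 and 6.48 in the AngII RNA and 6.44, 6.32, 6.38 and 6.29 in the media RNA, and the groups overlapped. It was well above background on 4 of 4 arrays in the AngII RNA and on 3 of 4 in the media RNA. The log2 ratios were 0.22, 0.02, 0.10 and 0.19, with a mean of 0.13. With Agilent's processed signals the mean was 0.41 and with no offset in the background correction it was 0.34, 2 settings that lack the added 50. With no background correction, which also lacks it but leaves the background in, the mean was 0.19. In raw intensities the spot stood 1.42 to 2.44 times over local background in the AngII channel and 1.53 to 1.82 times in the media channel. The genes nearest to Casp1 in their 4 array ratios were Cd300c2, Irf3, Clca1 and Arpc1a, at root mean square differences of 0.02 to 0.03. Ratios in the brightness decile of Casp1, the dimmest, had an SD across features of only 0.14, and nothing is read from this likeness.

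Casp1, Casp4 and Casp12 are consecutive protein-coding genes on chromosome 9. Their log2 ratios were 0.13, 0.63 and 0.32. Casp1 lay in brightness decile 1, the dimmest, of tested features, where the ratio had an SD across features of 0.14 and 0 percent of features were at least 1.5-fold apart. Casp4 lay in decile 8, where the SD was 0.44 and 17.5% of features were. Casp12 was about as dim as Casp1, with mean log2 intensities of 6.425 and 6.423. A low ratio of Casp1 or Casp12 on this scale therefore does not show that the gene changed less than Casp4.

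Nlrp3 encodes the sensor that assembles with ASC after potassium efflux and other stress signals. Its single probe was well above background on 3 arrays in the AngII RNA and on 2 in the media RNA, so it was not tested. The levels were 6.54, 6.31, 6.36 and 6.18 in the AngII RNA and 6.50, 6.24, 6.43 and 6.19 in the media RNA, which overlapped. The log2 ratios were 0.04, 0.07, -0.07 and -0.01, with a mean of 0.01. With processed signals the mean was 0.16 and the single arrays ran from -0.28 to 0.83.

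Il33 encodes IL-33, a nuclear alarmin of epithelial, endothelial and stromal cells, and among the tested IL-1 family members it had a higher ratio than Il1rn with the added offset of 50. With processed signals the order turned, at 0.99 for Il33 and 1.33 for Il1rn. The Il33 probe read 9.34, 9.51, 8.91 and 8.69 in the AngII RNA and 8.23, 8.42, 8.40 and 8.08 in the media RNA. The lowest AngII reading lay above the highest media reading. The log2 ratios were 1.11, 1.09, 0.50 and 0.61, with a mean of 0.83 (1.77-fold). The arrays with AngII in Cy3 alone had a mean of 0.55, under 1.5-fold, which is 0.55 below that of the other orientation, so the size moved with the dye. Without loess, with each array centred on its median, the arrays with AngII in Cy5 gave 1.73 and 1.84 and those with AngII in Cy3 gave -0.01 and -0.03. The pair means were 0.81 and 0.85. The authors' deposited table gave 0.89. Il1rl1, which encodes the IL-33 receptor ST2 and was named after its value was seen, had a log2 ratio of 0.36 at its brightest probe, from 0.19 on the lowest array to 0.52 on the highest, and passed in limma; another of its probes gave 0.70.

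Il1rn encodes the IL-1 receptor antagonist and its probes differed. The probe that passed the filter read 6.72, 6.76, 6.71 and 6.72 in the AngII RNA and 6.37, 6.67, 6.21 and 6.28 in the media RNA, with no overlap but a narrow gap on 1 array. Its log2 ratios were 0.34, 0.09, 0.50 and 0.44, with a mean of 0.34 (1.27-fold). With no offset the mean was 0.80 and with processed signals 1.33, both past 1.5-fold, so its size rests on the background correction. The other probe, on the same accession, was well above background on 0 of 4 arrays in the AngII RNA and 1 of 4 in the media RNA, and gave -0.08, -0.22, 0.18 and 0.12, with a mean of 0.00. Its sign turned with the dye orientation. In the authors' deposited table the probes had 0.49 and 0.03.

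**Figure D2:**
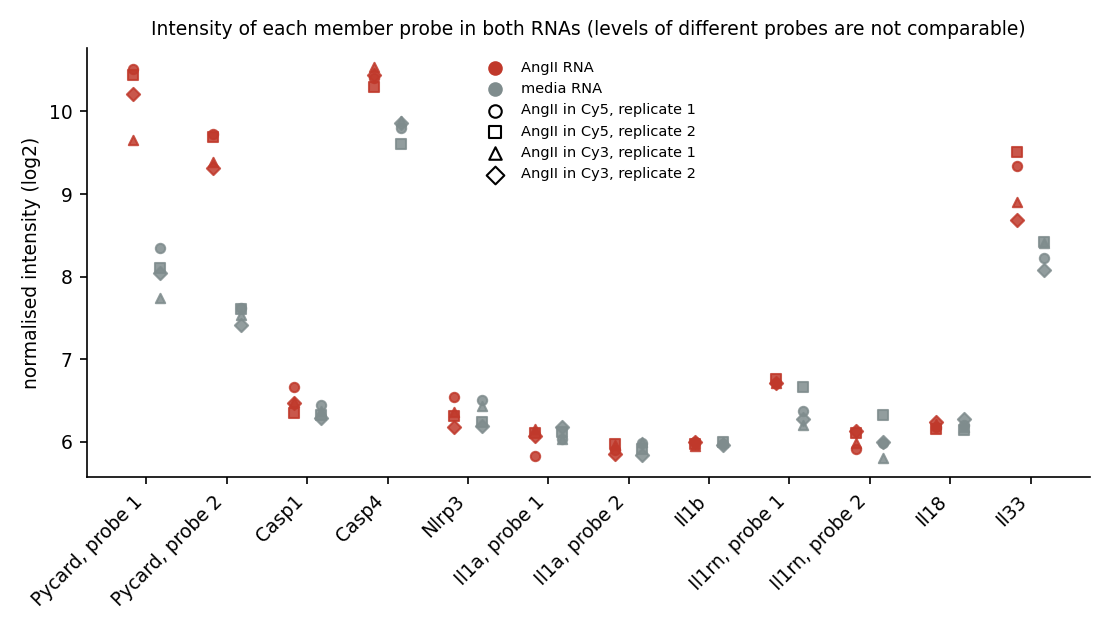
Normalised log2 intensity of each member probe in the AngII RNA (red) and the media RNA (grey) on the 4 arrays (symbols). The groups are apart for both Pycard probes, Casp4, Il33 and the first Il1rn probe, and overlap for the other probes, most of which lie near 6.

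Il1a and Il1b encode IL-1 alpha and IL-1 beta, the ligands of the type 1 IL-1 receptor, and neither was well above background on any array in either RNA. Il1b was printed at 10 spots per array, and 0 of 10 spots, outlier spots included, carried the flag in either channel of any of the 4 arrays. Its levels ran from 5.95 to 6.00 in the AngII RNA and from 5.96 to 6.00 in the media RNA. The array means were 0.03, -0.02, -0.05 and 0.04, with SDs over the spots of 0.06 to 0.08, and their mean was 0.00. The raw spots stood 1.09 to 1.42 times over local background in the AngII channel and 1.11 to 1.36 times in the media channel. In the authors' deposited table the mean over the 10 spots was -0.03, and 1 spot carried a call of lower. The 2 Il1a probes gave log2 ratios of -0.21, -0.01, 0.12 and -0.11, with a mean of -0.05, and of -0.08, 0.06, -0.04 and 0.01, with a mean of -0.01. Both lay on either side of 0. Their raw spots stood 0.956 to 1.76 times over local background in the AngII channel and 0.971 to 1.53 times in the media channel. With both RNAs at background no fold is given for Il1a or Il1b.

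Il18 encodes IL-18, which many epithelia hold as an inactive precursor, and its probe was also printed at 10 spots. Between 4 and 7 of the 10 spots, outlier spots included, were well above background in the AngII channel and between 0 and 8 in the media channel, depending on the array. By the rule that more than 50% of a probe's spots must carry the flag, it was above background on 3 of 4 arrays in each RNA and did not pass the filter. The log2 ratios were -0.02, 0.01, 0.04 and -0.03, with a mean of 0.00. The SDs over spots within an array were 0.07 to 0.11, larger than the mean on every array. On the array with AngII in Cy3 and RNA pair 2, 8 spots were used for each of these probes after outlier flags. In the authors' deposited table the spot ratios of Il18 ran from -0.07 to 0.12, with 2 of 10 spots called higher.

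**Figure D3:**
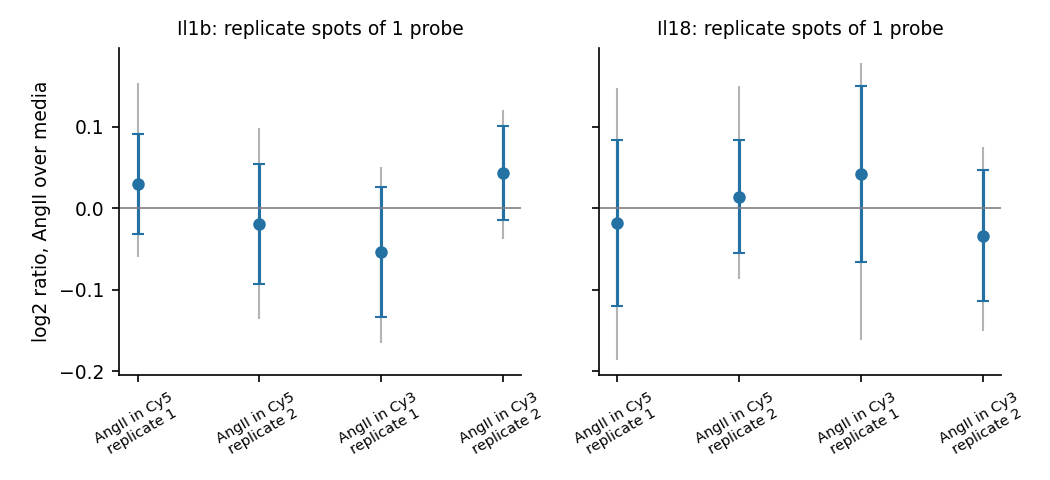
Log2 ratio of AngII over media for the replicate spots of the Il1b and Il18 probes on each array (points, mean; bars, SD over spots; grey lines, lowest to highest spot). All 8 means lie between -0.05 and 0.04 and the spots lie on both sides of 0 on every array.

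The other genes of the pathway were counted from 5 lists by role, of which 57 of the 90 genes on the array passed the filter on dim probes. Among these 57, 5 were at least 1.5-fold higher and 0 lower, a share of 8.77% against 10.9% of all features in either direction. In limma at an adjusted p under 0.05, which here measures the spread between hybridisations only, 32 of 57 passed as higher and 11 as lower, where 39% of all features passed as higher and 38.1% as lower. Their median log2 ratio was 0.09, against 0.00 over all features. The count at 1.5-fold was 18 (16 higher) with processed signals, or 31.6% of the list genes against 23.5% of all features, and 14 (13 higher) with no offset, or 24.6% against 18.7%. The filter used lets a gene pass through the AngII RNA alone. With a stricter filter, well above background on all 4 arrays in both RNAs, 50 list genes were left. Of these 4 were at least 1.5-fold higher and 0 lower, or 8% against 11.6% of all features. The lists were drawn up with results of the same comparison known.

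Among sensors of danger and their partners, 11 of 25 genes passed the filter. Of these 6 passed in limma as higher and 3 as lower, with a median log2 ratio of 0.09. P2rx7, the ATP-gated channel whose opening triggers NLRP3, had 0.70 (0.56 to 0.90 over the arrays). Its probe was dim, at a mean log2 intensity of 6.68, where that of Il1rn was 6.54. Brcc3, a deubiquitinase that acts on NLRP3, had 0.57 (0.37 to 0.78), Gbp2, an interferon-induced GTPase, 0.47 (0.24 to 0.78) and Nod1, a sensor of bacterial peptidoglycan, 0.46 (0.35 to 0.58). Nlrc4, Aim2, Mefv and the 4 Naip genes on the array, which encode sensors and pyrin, were among the 14 genes below the filter.

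Among other caspases, gasdermins and genes of cell rupture, 16 of 18 passed the filter, and 11 of the 16 passed in limma as higher and 1 as lower. The median log2 ratio was 0.19. Gsdme, a pore-forming gasdermin cut by caspase-3, had 0.77 (0.65 to 0.98) and was the only 1 of the list past 1.5-fold. Casp6, an executioner caspase of apoptosis, had 0.52 (0.32 to 0.72), and Casp12 had 0.32 (0.22 to 0.45). Gsdmd, the gasdermin that caspase-1 and caspase-11 cut, was named after its value was seen and had 0.08 (-0.05 to 0.19).

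Of the other IL-1 family ligands and binding proteins only Il1f6 and Il18bp passed the filter. Il1f6, which encodes IL-36 alpha, had a log2 ratio of 0.61 (0.50 to 0.70), and Il18bp, which encodes the soluble inhibitor of IL-18, had -0.28 (-0.59 to 0.00, and -0.21 at another probe). The Il18bp probe was dim, at a mean log2 intensity of 6.72. Among receptors and signalling genes 19 of 25 passed the filter, 9 passed in limma as higher and 3 as lower, and the median was 0.07. Sigirr, an inhibitory receptor of the IL-1 receptor family, had 0.69 (0.40 to 0.99), Il18r1, a chain of the IL-18 receptor, 0.57 (0.38 to 0.74) and Il1r1, the signalling IL-1 receptor, 0.49 (0.16 to 0.79). The Il18r1 probe was dim, at a mean log2 intensity of 6.75. Peli2, a ubiquitin ligase of this pathway, had -0.43 (-0.49 to -0.37), with 0.04 at another probe.

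Toll-like receptors and their adaptors prime the transcription of inflammasome genes. Of 17 on the array 9 passed the filter, 5 of which passed in limma as higher and 3 as lower, with a median of 0.08. Unc93b1, which carries nucleic acid-sensing Toll-like receptors to endosomes, had the highest ratio of all 5 lists at 1.22 (0.89 to 1.48). Tirap, an adaptor of Toll-like receptors, had -0.56 (-0.78 to -0.29), the co-receptor gene Cd14 0.47 (0.10 to 0.79) and Tlr9 -0.25 (-0.31 to -0.12).

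**Figure D4:**
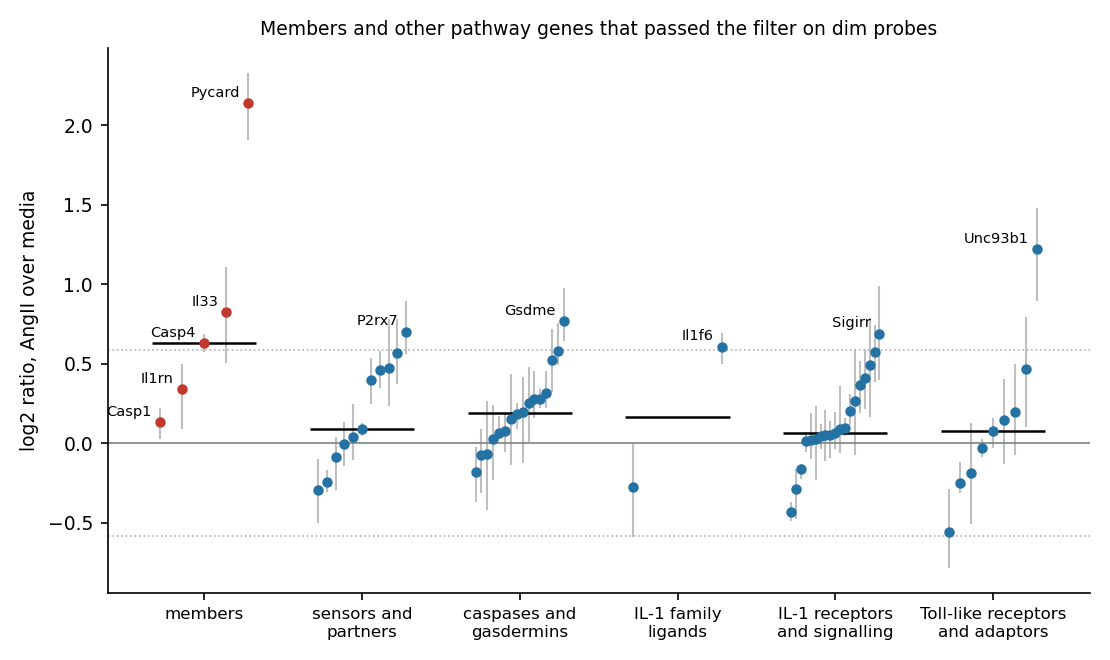
Mean log2 ratio of AngII over media for the tested members (red) and the tested genes of the 5 pathway lists (blue), each with its lowest to highest array as a grey line, the list's median as a black bar and dotted lines at 1.5-fold. Pycard at 2.14 lies above every gene of the lists, of which Unc93b1 at 1.22 is the highest.

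The labelled tissue was checked against its markers, and other cell types were read in the same arrays. Of 18 ureteric epithelium markers 16 passed the filter, while Ret, the GDNF receptor gene of the ureteric tip, and Upk3a were not well above background on any array. Summed over the list, ureteric markers read 231258 to 254084 units of normalised intensity in the AngII RNA and 250056 to 320003 in the media RNA, with Wnt9b at a log2 ratio of 1.53 and Wnt7b at -1.13. The keratin genes Krt8 and Krt18 held 87.4% to 92.5% of that sum on every array, and the sums without them, computed after their values were seen, turned in direction at 26698 to 29783 in the AngII RNA and 23326 to 24808 in the media RNA. In limma 7 of the 16 passed as higher and 7 as lower. Stromal and endothelial markers passed the filter in 11 of 12 genes.

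Macrophage and leukocyte markers, which bear on genes that leukocytes express, had a summed level of 1986 to 2083 in the AngII RNA and 1984 to 2134 in the media RNA, so these ranges overlapped. Of 19 on the array 11 passed the filter and 1, Ptprc, was at least 1.5-fold higher, with a log2 ratio of 0.64 (0.39 to 0.92), and Tyrobp had 0.33. Ptprc passed the filter through the AngII RNA alone. In the media RNA it was well above background on 2 of 4 arrays, at a mean level of 6.19. In limma 3 of the 11 passed as higher and 6 as lower. Lyz1, Lyz2, Itgam, Cd53, Cx3cr1, Mrc1 and Spi1 were not well above background on any array in either RNA. Such genes still add to the summed level, because every level includes the added offset. Coro1a had the highest mean level of the list, at 8.39 in the AngII RNA and 8.66 in the media RNA. Its log2 ratio of -0.28 was opposite in sign to that of Ptprc. The overlap of the summed ranges therefore does not show that leukocyte content was equal. Neutrophil and mast cell markers passed in 2 of 11 genes, Mpo at -0.12 and S100a9 at 0.01, with summed levels of 734 to 789 and 755 to 788. Of the 11 genes 8 were not well above background on any array in either RNA, so nothing is read from the likeness of these sums.

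Erythroid markers as a list were also higher in the AngII RNA. Their summed level was 32482 to 40070 in the AngII RNA and 6290 to 7352 in the media RNA, and 6 of the 8 tested of 11 on the array were at least 1.5-fold higher, with Hbb-bt at 2.78 and Hbb-bh1 at 2.58, while Gata1 was not well above background on any array. Stromal and endothelial markers summed to 31398 to 34135 in the AngII RNA and 22588 to 24048 in the media RNA, although 4 of the 11 tested passed as higher and 5 as lower, with a median log2 ratio of -0.03, with Acta2, smooth muscle actin, at 1.69 (1.03 and 0.65 at other probes) and Plvap at -0.49. Acta2 held 29.5% to 37.4% of that sum in the AngII RNA and at most 15.4% in the media RNA, and the sums without it, computed after its value was seen, were 20846 to 22834 and 19267 to 20516. Nephron progenitor markers summed to 6608 to 7946 and 6339 to 6981, with Wnt4 at 1.48 and Tmem100 at 0.77. Of these 8 genes 3 passed in limma as higher and 5 as lower, with a median log2 ratio of -0.32, and Meox1, named after its value was seen, was past 1.5-fold lower at -0.60. The part of these cell types in the ratios of Pycard, Casp4 and Il33 was not tested.

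**Figure D5:**
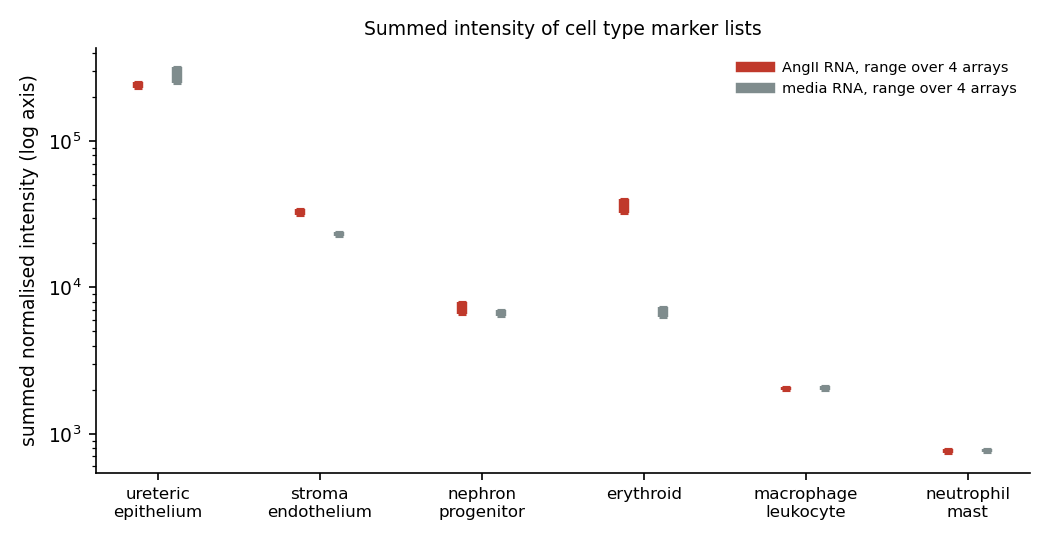
Summed normalised intensity of 6 marker lists (log axis) in the AngII RNA (red) and the media RNA (grey), each bar spanning the lowest to the highest of the 4 arrays. The erythroid and stromal lists are apart, at 32482 to 40070 against 6290 to 7352 and 31398 to 34135 against 22588 to 24048, and the macrophage and leukocyte list overlaps. In that last list 7 of 19 genes were not well above background on any array, and in the neutrophil and mast cell list 8 of 11. Such genes add to the sums of both RNAs, so an overlap in these lists does not show equal cell content. Acta2 carries most of the stromal gap, in a list where 5 of the 11 tested genes passed as lower, and Krt8 and Krt18 hold most of the ureteric sum.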

How the data were processed

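Total RNA (300 ng) was reverse transcribed with Cy dyes from an oligo-dT type primer, per the labels' protocols. Feature Extraction 10.5.1.1 read the slide, per the file headers. For each spot the deposited scanner tables give intensity as the median over pixels, for the spot and its surroundings, and as a processed value from which Agilent's software has taken the background and the dye bias. The deposited scanner tables also hold a log10 ratio of red over green and flags, which act as a score of 0 or 1. The authors' deposited table holds log2 ratios and mean log2 intensities, adjusted p-values and calls, a score of -1, 0 or 1. The submitters' processing notes name limma, with no version, and its normalisation is not given in the sources used here. Across features its ratios correlated with those computed here at r = 0.995, which settles their direction as AngII over media.

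The calculation here used limma 3.58.1 in R 4.3.3: normexp background correction with an offset of 50, loess within arrays (control spots had weight 0), spots with an outlier flag left out, spots of a probe averaged, arrays turned, and the 2 arrays of an RNA pair averaged. lmFit and eBayes then tested both ratios against 0 over 15003 features (19390 probes that passed the filter, the brightest of a gene), with Benjamini-Hochberg adjustment. The step was tested on simulated data. Probes were named by accession through RefSeq genes of GRCm38.p6 (25097 probes); the array annotation is of mm9, so coordinates are those of RefSeq sequences only.

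The members and lists were chosen with earlier results of these data known. Named genes are the members, up to 4 genes with the largest ratio in size per pathway list, up to 2 per marker list, ureteric markers, and the 4 genes nearest to Pycard and to the tested member with the lowest ratio. Itgam, Trim72, Il1rl1, Gsdmd and listed dim genes fall outside this rule, and some genes are not reported here. The replicate numbers pair RNAs within each array, so the ratio is the pairing. The labels call the RNAs biological replicates and name no separate animals. The number of arrays limits the precision.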

Additional observations from a re-analysis of the deposited data

How the results depend on the processing

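Over the alternatives run, no tested member (Pycard, Casp1, Casp4, Il1rn, Il33) turned in direction: 13 alternatives each, 12 for Casp1, which the stricter filter removed. Casp4 and Pycard were past 1.5-fold in all 13, Il33 in 12 (0.55 with AngII in Cy3 only), Il1rn in 2 and Casp1 in none of 12. Not all alternatives could move a ratio. The changes of the filter on dim probes left the ratios of these members as they were, as did the replicate block. Averaging a gene's probes moved only Pycard, to 2.06. Without replicate 1 or 2 the features at least 1.5-fold apart numbered 1632 to 1656 (1633 in all) and the pathway genes 5 to 7. Of 15003 features 11565 were called in limma, and 4640 with the replicate number as a block. The main fit averages the 2 arrays of a pair, which cancels the difference between dye orientations. The block fit takes the 4 arrays singly and keeps that difference in its spread (median size 0.20 in log2). The part of this in the lower count was not tested. The member ratios are the same with the block. Features at least 1.5-fold apart numbered 3531 with processed signals and 2804 with no offset, 2 settings that lack the added 50. The setting with no background correction lacks it as well but leaves the background in, and gave 1911. Pathway genes at that size numbered 18 with processed signals and 14 with no offset, against 5. They numbered 8 with no background correction, 8 with median centring, 8 in the authors' deposited table and 10 with AngII in Cy5 only. The cause of these latter 4 counts was not tested. Signal over background limits Nlrp3, Il1a, Il1b, Il18, Casp1 and Il1rn.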
